A study of Mus musculus with 4 samples.

Results

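The fetal gene program of the heart was followed here through 9 marker genes of hypertrophy in mice whose GSK-3beta carries a Ser9Ala replacement. The genes were Nppa, Nppb, Myh6, Myh7, Acta1, Acta2, Ankrd1, Xirp2 and Rcan1, taken as a list by symbol. All probe sets that the platform annotation assigned to a single one of these symbols were used, which gave 13 probe sets for 8 of the 9 genes, among 45037 probe sets and 18193 genes in all. Xirp2, which encodes an actin-binding repeat protein of muscle, was not analysed here. Total RNA from heart was converted to biotin-labelled cRNA and hybridised to Affymetrix 3' expression arrays, which read each transcript with sets of short probes. Hearts of GSK-3beta S9A knock-in mice at 3.5 months of age filled 2 arrays and hearts of wild-type mice at 3.6 months the other 2. The strain was labelled C57B6 throughout and every heart was taken at baseline. Age followed genotype, so effects of age and of genotype cannot be told apart. The labels give neither the sex of the mice nor the part of the heart taken. They also leave unsaid whether each array stands for its own animal, and p-values therefore cover only the spread between these arrays, possibly technical.

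The kinase GSK-3beta restrains hypertrophic growth, in part by phosphorylating NFAT transcription factors so that they leave the nucleus. Phosphorylation of its serine 9 by Akt and other kinases switches the enzyme off, and the alanine replacement removes that switch. When the adult heart is overloaded, cardiomyocytes re-express genes of fetal heart, among them the natriuretic peptides, the beta myosin heavy chain and skeletal alpha-actin, and these transcripts are used as markers of pathological growth. Calcineurin, a calcium-activated phosphatase, opposes GSK-3beta on NFAT, and Rcan1 is its feedback inhibitor.

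The upstream regions of 5 promoters are shown because actin, natriuretic peptide and Rcan1 transcription is each known for a different class of site, and because the actins were the genes of the list with the smallest p. Sequences are those of RefSeq on build GRCm38.p6, from 250 bases before to 50 after the annotated start, written 5′ to 3′ on the gene's strand, and each of the 9 genes was found there. In Acta1 (chr8:123894726-123895025, minus strand) and Acta2 (chr19:34255324-34255623, minus strand) capitals mark CArG boxes, the sites of serum response factor, with at most 1 letter other than A or T allowed between the flanking CC and GG. In Nppa (chr4:148000472-148000771, plus strand) and Nppb (chr4:147985650-147985949, plus strand) capitals mark GATAA on either strand, the core letters bound by GATA factors. In the downstream promoter of Rcan1 (chr16:92400029-92400328, minus strand) capitals mark GGAAA on either strand, the core letters bound by NFAT.
Acta1: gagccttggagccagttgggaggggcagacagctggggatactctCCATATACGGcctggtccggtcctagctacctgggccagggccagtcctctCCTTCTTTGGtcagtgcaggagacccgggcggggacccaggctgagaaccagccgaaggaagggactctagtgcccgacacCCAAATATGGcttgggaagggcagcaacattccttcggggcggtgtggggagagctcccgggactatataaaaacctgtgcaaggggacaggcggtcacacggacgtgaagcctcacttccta
Acta2: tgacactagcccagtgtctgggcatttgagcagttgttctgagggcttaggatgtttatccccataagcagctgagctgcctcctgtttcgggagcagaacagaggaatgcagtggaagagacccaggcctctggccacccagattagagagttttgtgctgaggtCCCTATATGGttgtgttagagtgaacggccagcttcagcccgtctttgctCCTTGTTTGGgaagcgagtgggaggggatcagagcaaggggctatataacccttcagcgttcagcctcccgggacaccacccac
Nppa: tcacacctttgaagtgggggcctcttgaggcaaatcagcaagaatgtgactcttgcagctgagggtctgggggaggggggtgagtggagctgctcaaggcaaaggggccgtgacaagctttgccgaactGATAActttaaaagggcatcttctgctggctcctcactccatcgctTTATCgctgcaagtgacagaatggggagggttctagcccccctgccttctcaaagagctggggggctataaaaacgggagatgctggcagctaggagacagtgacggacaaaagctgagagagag
Nppb: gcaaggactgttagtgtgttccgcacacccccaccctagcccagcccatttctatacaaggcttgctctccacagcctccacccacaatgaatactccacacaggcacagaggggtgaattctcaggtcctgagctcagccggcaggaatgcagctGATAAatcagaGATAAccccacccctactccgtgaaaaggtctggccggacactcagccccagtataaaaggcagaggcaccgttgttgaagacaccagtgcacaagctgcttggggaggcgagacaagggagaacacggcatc
Rcan1 downstream: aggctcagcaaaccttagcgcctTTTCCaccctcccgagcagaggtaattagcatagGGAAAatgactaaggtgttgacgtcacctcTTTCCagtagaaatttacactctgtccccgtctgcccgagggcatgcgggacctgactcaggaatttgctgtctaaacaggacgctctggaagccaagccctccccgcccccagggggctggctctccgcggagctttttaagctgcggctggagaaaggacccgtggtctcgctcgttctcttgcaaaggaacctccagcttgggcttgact

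Acta1 held 3 such boxes, one of them the strict form CCAAATATGG with only A and T in the middle, and Acta2 held 2 and no strict one. Among 32851 promoters, 9.98% had a box of the looser form and 1.63% the strict form. GATAA occurred 2 times in each natriuretic peptide promoter and in 25.4% of all promoters. GGAAA occurred in 61.3% of all promoters, 3 times in the downstream and nowhere in the upstream promoter of Rcan1. CATTCC on either strand, the letters bound by TEAD factors, stood in 6 of the 11 promoters of the 9 genes, Acta1, Acta2 and Nppb among them, against 14.7% of all promoters. Of the same 11, the looser CArG form stood in 4, GATAA in 4 and GGAAA in 3. These included the looser box in Myh6 and upstream Rcan1, GATAA in Acta2 and Ankrd1, and GGAAA in each Myh7 promoter. No pair of these matches overlapped, apart from the strict box that the looser form includes. A match describes letters in this window and is not evidence of binding.

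None of the 8 measured genes passed the limma test at an adjusted p of 0.05, and over all genes 0.0055% passed, which is 1 gene, with lower values in knock-in animals. Acta1 had the largest difference of the 8, with 2.03-fold higher values in knock-in hearts, followed in size by Rcan1, with values 1.43-fold lower, while Nppa, Myh6 and Myh7 lay within 1.06-fold between genotypes. At an unadjusted p under 0.05 there were 2 of the 8, Acta1 and Acta2, in opposite directions, against 7.39% of all genes. The knock-in arrays lay above both wild-type arrays for Nppa, Myh6 and Acta1, below both for Acta2, and overlapped them for the other 4. Such separation was seen in 36.5% of all genes, with the knock-in arrays above in 19.6% and below in 17%. Among genes above the median level, 43.9% were apart and 9.73% had an unadjusted limma p under 0.05. The median difference of the 8 was 0.07 on the log2 scale (0.000837 without knock-in 2, 0.01 without wild-type 1 and 0.10 without knock-in 1), beside 0.000238 over all genes, and the median size of difference was 0.19, beside 0.09. All 8 representing probe sets were above the median brightness of all genes, so none of these values rests on a dim probe set. With 2 arrays a group, the smallest p an exact permutation test could give was 0.333.

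**Figure D1:**
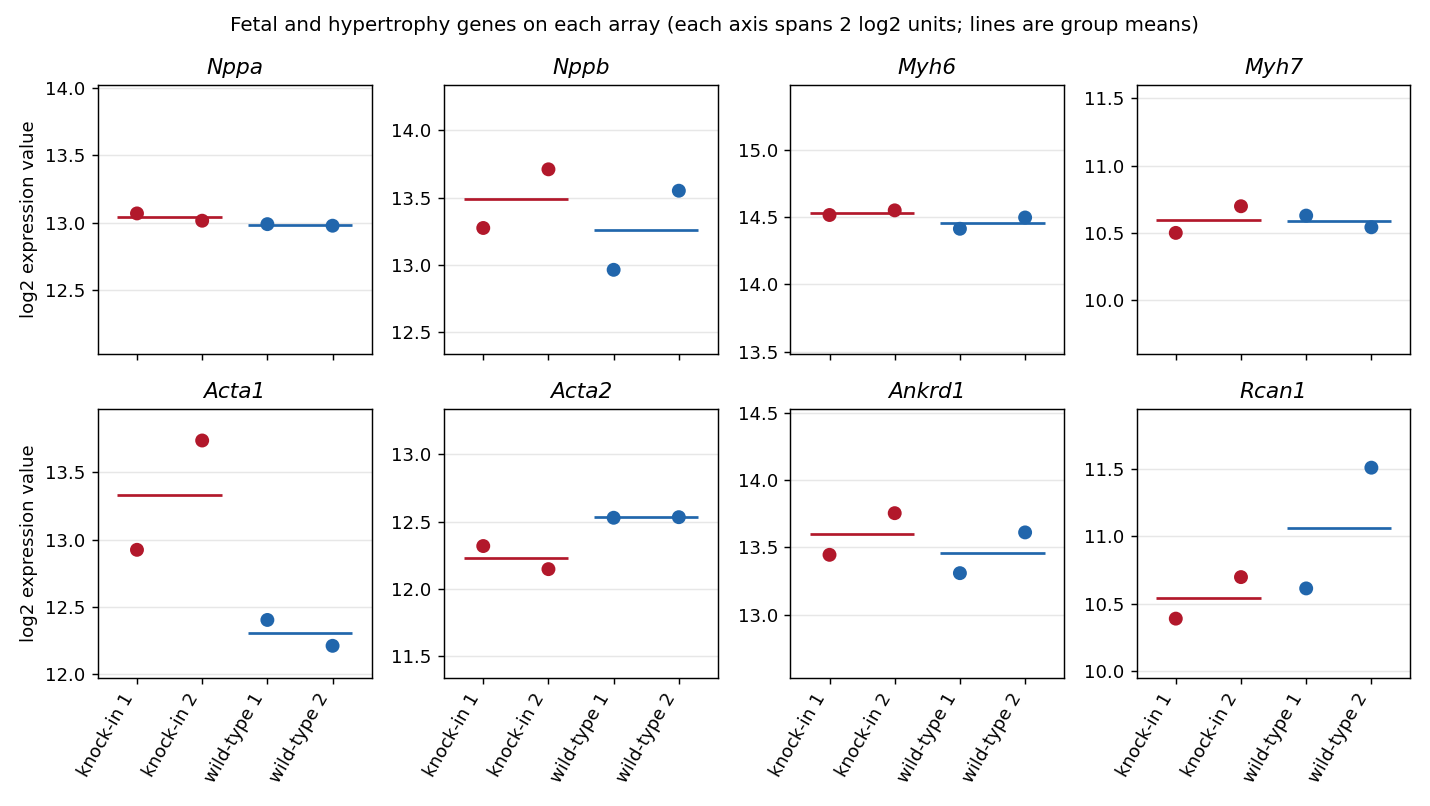
Log2 expression values of the 8 measured genes on the 2 knock-in arrays (red) and the 2 wild-type arrays (blue), with group means as lines and an axis of equal span in every panel. Acta1 shows both knock-in values above both wild-type values, Acta2 both below, and Nppb, Myh7, Ankrd1 and Rcan1 overlap.

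**Figure D2:**
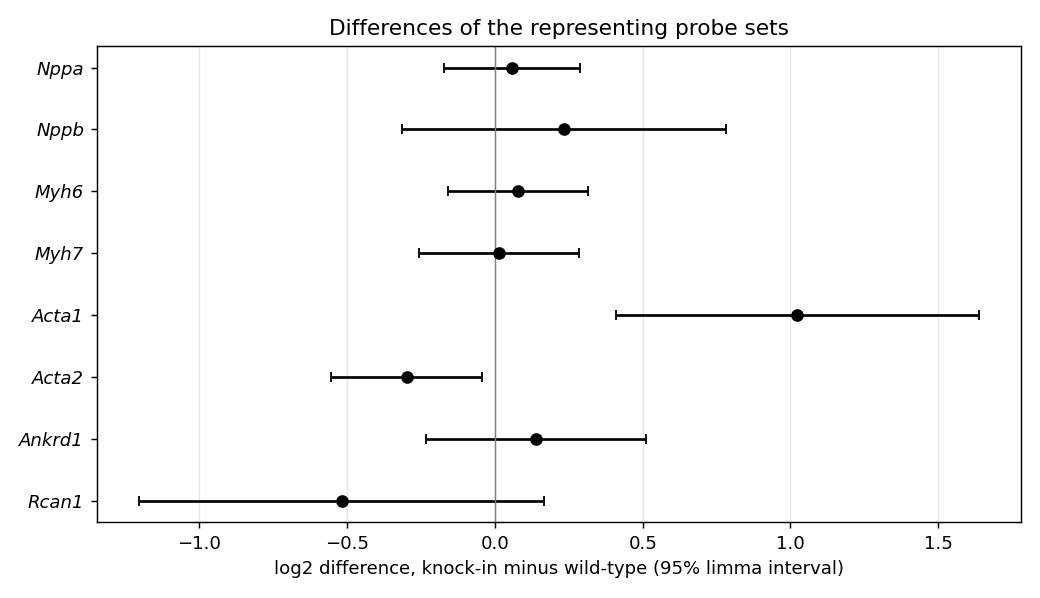
Log2 differences, knock-in minus wild-type, of the representing probe set of each gene, with 95% intervals from limma as bars. The intervals of Acta1 (0.41 to 1.64) and Acta2 (-0.55 to -0.04) leave out 0, before any adjustment for the number of genes, and the other 6 include it.

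The intervals of both natriuretic peptides included a difference of 0. Nppa encodes atrial natriuretic peptide, a hormone of atrial cardiomyocytes that ventricles produce again under load and that promotes salt excretion. Its value was 13.07 and 13.02 in knock-in hearts, against 12.99 and 12.98 in wild-type hearts, so that the groups lay apart by a small margin. The difference was 0.06 on the log2 scale (SE 0.10, adjusted p = 0.951), with a 95% interval from -0.17 to 0.29, which corresponds to between 0.887-fold and 1.22-fold. Nppb encodes brain natriuretic peptide, the ventricular counterpart that is raised by wall stress. It had 13.27 and 13.71 in knock-in hearts and 12.96 and 13.55 in wild-type hearts. One array of each genotype was low and the other high, and the groups overlapped. The difference of 0.23 (SE 0.23, adjusted p = 0.883, interval -0.31 to 0.78) was smaller than the gap between the wild-type arrays, and which array was left out decided its size. It was 0.02 and 0.45 when knock-in 2 or knock-in 1 was dropped, against -0.06 and 0.53 when wild-type 1 or wild-type 2 was. In the RefSeq gene table Nppa and Nppb are adjacent protein-coding genes, with 0 others between them.

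Of 12 genes for processing, sensing and clearing natriuretic peptides, all measured, 0 passed, with 5 values above 0 and 7 below and a median of -0.03. Corin, the protease that activates the Nppa precursor, differed by -0.04, and the receptors Npr1 and Npr2 by -0.02 and 0.04. Pde9a, a phosphodiesterase that degrades cyclic GMP, was the only one at an unadjusted p under 0.05, with 5.47 and 5.35 in knock-in hearts and 5.64 and 5.66 in wild-type hearts (difference -0.25, adjusted p = 0.660). Whether atria were included is not stated. Summed on the linear scale, the 8 atrial markers came to 7665.2 and 6743.0 in knock-in hearts, against 7204.3 and 6551.1 in wild-type hearts, which overlap, and 0 of the 8 had an unadjusted p under 0.05. The atrial light chain Myl7 differed by 0.10 and sarcolipin, Sln, by -0.03.

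Myosin heavy chain values depended on the probe set. Myh6 encodes the fast alpha heavy chain of adult mouse ventricle and Myh7 the slower beta chain of fetal and failing heart, which have closely related sequences and lie next to each other in the gene table. The brightest probe set of Myh6 alone, 1448826_at, had 14.51 and 14.55 in knock-in hearts and 14.41 and 14.50 in wild-type hearts, a difference of 0.08 (SE 0.10, adjusted p = 0.926, interval -0.16 to 0.31). Its other probe set, 1417729_at, which was far dimmer, had 7.18 and 8.35 in knock-in hearts and 8.12 and 8.39 in wild-type hearts. There knock-in 1 stood 0.94 log2 units below the next array, and the other arrays lay close together. The difference by that probe set was -0.49 (SE 0.36), and 0.09 without knock-in 1. Myh7 had 10.50 and 10.70 in knock-in hearts and 10.63 and 10.54 in wild-type hearts by its single probe set, 1448553_at. The groups overlapped, and the difference was 0.01 (SE 0.11, adjusted p = 0.998, interval -0.26 to 0.29).

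A further 2 probe sets were annotated to both myosin genes and represent neither. The brighter, 1448554_s_at, had 14.71 and 14.78 in knock-in hearts and 14.73 and 14.71 in wild-type hearts. The dimmer, 1448827_s_at, had 8.44 and 9.56 in knock-in hearts and 9.75 and 9.56 in wild-type hearts, with knock-in 1 low again. A drop on 1 array was thus shared by the dim Myh6 probe set and the dim shared one, while the bright probe sets spanned 0.14 and 0.07 over the arrays. These bright probe sets stood at percentiles 99.96 and 99.99 of all probe sets by brightness, and whether their signal was still proportional to RNA there was not tested. Ranked by the gap between knock-in 1 and the next array above it, 1448827_s_at (1.11) was in place 8 and 1417729_at in place 19 of 45037 probe sets. By root mean square distance between array values, each centred on its own mean, the probe sets closest to 1417729_at belonged to Bcl6 (distance 0.03), Kdm7a (0.04) and Tollip (0.08). That comparison was chosen after the values of the probe set had been seen.

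**Figure D3:**
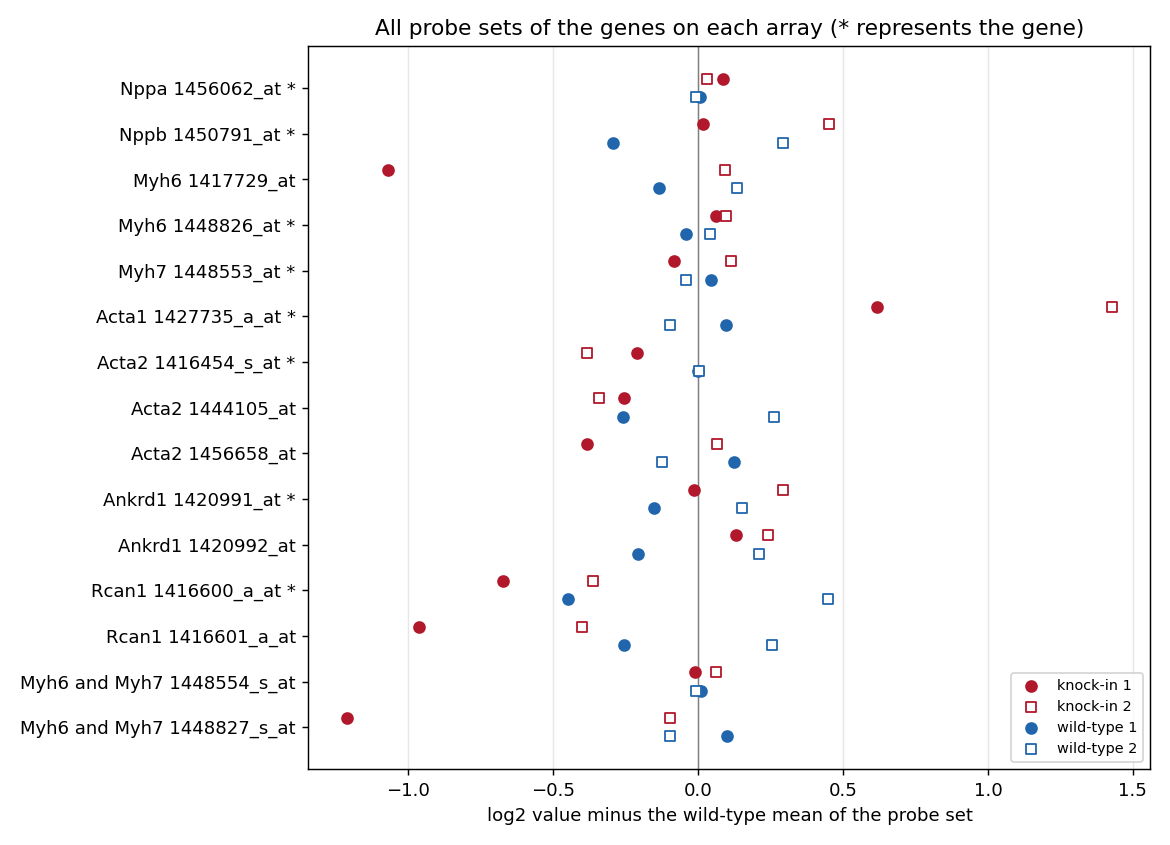
All 13 probe sets of single genes and the 2 annotated to both myosins, each array shown as its log2 value minus the wild-type mean of that probe set (knock-in in red, wild-type in blue, first array filled circle, second open square). The low knock-in 1 values of 1417729_at and 1448827_s_at stand far left of the bright myosin probe sets, and both Acta1 knock-in values stand on the right.

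The muscle alpha-actins differed in opposite directions. Acta1 encodes the skeletal isoform, which fetal and hypertrophied hearts use beside cardiac alpha-actin. Its single probe set had 12.93 and 13.74 in knock-in hearts, against 12.40 and 12.21 in wild-type hearts. Both knock-in arrays were above both wild-type arrays, and knock-in 2 was the highest by a wide margin. The difference was 1.02 on the log2 scale (SE 0.25, unadjusted p = 0.00619, adjusted p = 0.401), with an interval from 1.33-fold to 3.11-fold, and 0.209% of all genes had a larger one in size. It was 0.62 without knock-in 2 and 1.43 without knock-in 1, and the adjusted p was between 0.156 and 1 over the alternatives.

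Acta2 encodes the smooth muscle isoform, found in vessel walls and in early embryonic cardiomyocytes. The probe set representing it, 1416454_s_at, had 12.32 and 12.15 in knock-in hearts and 12.53 and 12.53 in wild-type hearts, so both knock-in values were lower. The difference was -0.30 (SE 0.11, unadjusted p = 0.0289, adjusted p = 0.587), a value 1.23-fold lower with an interval from 1.03-fold to 1.47-fold. The other 2 probe sets of Acta2 were dim, between 3.90 and 4.99, and differed by -0.30 and -0.16 with overlapping groups. Cardiac alpha-actin, Actc1, had 14.50 and 14.60 in knock-in hearts and 14.43 and 14.48 in wild-type hearts, a difference of 0.09. Actin isoforms share most of their coding sequence, so a probe set may take up signal from another isoform.

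Markers of tissues that use these isoforms were set beside them. The 9 skeletal muscle markers summed to 1426.8 and 1755.0 in knock-in hearts and 1445.5 and 1368.1 in wild-type hearts, overlapping, with a median difference of -0.00112. Of the 9, 4 had values above 0 and 0 an unadjusted p under 0.05, and the fast myosins Myh1 and Myh4 lay between 4.16 and 4.54 on all arrays. Myl1, a fast skeletal light chain and the brightest of the 9, had 9.93 and 10.34 in knock-in hearts, against 9.85 and 9.87 in wild-type hearts (difference 0.28, adjusted p = 0.752). Its groups lay apart with knock-in 2 highest, as for Acta1. Tnnt3, the fast troponin T, was also higher on both knock-in arrays, by 0.10. With it, 2 of the 9 were above, beside 19.6% of all genes. In the other direction, 5 of the 9 had differences below 0. Mylpf (-0.28), Myh2 (-0.10) and Pvalb (-0.07) were among them, each with overlapping groups and at percentiles 35.4, 45.5 and 33.7 of all genes by brightness. The others, Tnni2 and Actn3, differed by only -0.00112 and -0.00414. The part of skeletal muscle transcripts in the Acta1 difference was not tested. The 8 smooth muscle markers summed to 6138.1 and 5781.5 in knock-in hearts and 6092.9 and 6074.2 in wild-type hearts. Their median difference was -0.12, with 6 of 8 below 0. Knock-in arrays lay below both wild-type arrays for 3 of the 8, beside 17% of all genes. They lay above both for 1, beside 19.6%. Myh11, the smooth muscle myosin, was at -0.01, and Smtn, or smoothelin, at 0.51 with an unadjusted limma p of 0.00318. Cnn1 was at -0.43, with 6.99 and 6.26 in knock-in hearts and 7.10 and 7.02 in wild-type hearts, so knock-in 2 stood apart. In bulk tissue, fewer cells of a type and less RNA per cell cannot be told apart.

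Liver transcripts, and some of those on the fat list, also had higher values on the knock-in arrays. All 11 hepatocyte markers were higher on both knock-in arrays, beside 19.6% of all genes. All 11 had an unadjusted p under 0.05, beside 4.4% of all genes in that direction, and 0 passed at an adjusted p of 0.05. Their sums were 2349.6 and 3890.4 in knock-in hearts, against 1119.9 and 755.8 in wild-type hearts. The order of these sums over the arrays, knock-in 2, knock-in 1, wild-type 1 and wild-type 2, was that of Acta1. Apoc3 and Fgb alone had wild-type 2 above wild-type 1. The 4 measured adipocyte markers summed to 395.3 and 440.1 in knock-in hearts and 151.4 and 138.0 in wild-type hearts. Of these, Car3 and Adipoq were higher on both knock-in arrays, 2 of 4, beside 19.6% of all genes. Car3, the brightest of the 4, had 8.07 and 8.26 in knock-in hearts and 6.23 and 5.65 in wild-type hearts, and weighed most in the knock-in sums. Adipoq had 6.47 and 6.54 in knock-in hearts, against 5.11 and 5.65 in wild-type hearts. Whether Car3 marks fat alone was not tested. Cidec and Lep, which are defining genes of fat cells, differed by -0.08 and 0.03. Both were dim, at percentiles 9.26 and 11.3 of all genes by brightness, where a difference may not show. The part of liver and fat transcripts in the Acta1 difference was not tested.

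**Figure D4:**
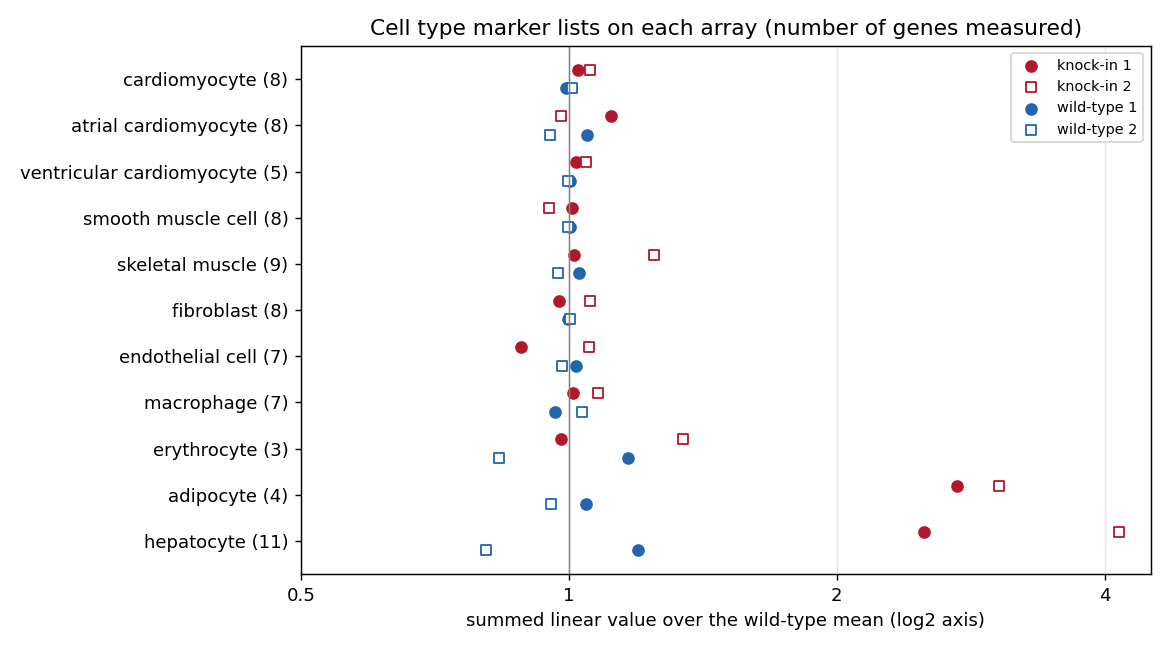
Summed linear values of cell type marker lists on each array, divided by the wild-type mean of the list, on a log2 axis (knock-in in red, wild-type in blue). Hepatocyte, adipocyte, cardiomyocyte and ventricular sums were higher on both knock-in arrays. The cardiomyocyte and ventricular lists share the bright genes Myl2 and Myl3, which differed by 0.04 each. The sums of atrial, smooth muscle, skeletal muscle, fibroblast, endothelial, macrophage and erythrocyte markers overlapped between genotypes.

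Ankrd1 and Rcan1 report mechanical stress and calcineurin activity. Ankrd1 encodes a stretch-responsive ankyrin repeat protein that binds titin in the sarcomere and also enters the nucleus. Its representing probe set, 1420991_at, had 13.44 and 13.75 in knock-in hearts and 13.31 and 13.61 in wild-type hearts. The second, 1420992_at, had 13.15 and 13.26 in knock-in hearts and 12.81 and 13.23 in wild-type hearts. By the first, 1 array per genotype was low and the other high, while by the second only wild-type 1 stood apart. Wild-type 1 was the lowest of the 4 by both. The differences were 0.14 (SE 0.15, adjusted p = 0.907, interval -0.23 to 0.51) and 0.19, and for the representing probe set -0.02 with knock-in 2 dropped, -0.01 with wild-type 1 dropped and 0.29 when either remaining array was.

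Rcan1 is transcribed from an upstream and a downstream promoter, of which the downstream one answers to calcineurin and NFAT. The probe sets were annotated to the gene and not to either transcript. The brighter, 1416600_a_at, had 10.39 and 10.70 in knock-in hearts and 10.61 and 11.51 in wild-type hearts, where wild-type 2 stood apart and the groups overlapped. The difference was -0.52 (SE 0.28, adjusted p = 0.758), with an interval from -1.20 to 0.17. Dropping wild-type 2 left -0.07, whereas dropping wild-type 1 gave -0.97. The dimmer, 1416601_a_at, had 6.49 and 7.06 in knock-in hearts and 7.20 and 7.71 in wild-type hearts. The groups did not overlap and knock-in was lower, a pattern seen in 18.2% of all probe sets. That difference was -0.68 (SE 0.24, unadjusted p = 0.0286, adjusted p = 0.821 over all probe sets), against 5.84% of all probe sets at an unadjusted p under 0.05, and it ran from -0.96 to -0.40 when arrays were left out in turn. By both probe sets the lowest value was that of knock-in 1 and the highest that of wild-type 2.

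Of 15 genes of the calcineurin and NFAT list, all measured, 0 passed, with 11 values above 0 and a median of 0.05. Ppp3cc, a catalytic subunit of calcineurin, had 7.73 and 7.80 in knock-in hearts and 7.07 and 7.52 in wild-type hearts (difference 0.47, adjusted p = 0.562, 0.21 with probe sets averaged and 0.25 without wild-type 1). The catalytic subunits Ppp3ca and Ppp3cb of heart differed by 0.20 and 0.10, Nfatc3 and Nfatc4 by 0.09 and 0.04, and Rcan2, a paralogue of Rcan1, by -0.03. Gsk3b itself was at 9.82 and 9.87 in knock-in hearts and 9.62 and 9.72 in wild-type hearts (difference 0.18, adjusted p = 0.761), and a transcript array cannot check an amino acid replacement.

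No regulator or further gene of the program passed the test. In 7 lists with 120 measured genes of 129, 5 had an unadjusted p under 0.05 with higher and 6 with lower values in knock-in hearts, beside 4.4% and 2.99% of all genes. Together these were 9.17% of the 120, beside 7.39% of all genes and near the 9.73% of genes above the median level. Some of the 120, Pde9a and Adra1b among them, lay below that level. Knock-in arrays lay above both wild-type arrays for 36 of the 120 and below both for 29. Together these were 54.2% of the 120, beside 36.5% of all genes and 43.9% of genes above the median level. The median over the 120 was 0.02. Several of the genes named next changed their value with the probe set chosen, as given beside them.

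Of 19 cardiac transcription factors and cofactors, 0 had an unadjusted p under 0.05, 8 values were above 0 and the median was -0.00339. Gata4, which drives the natriuretic peptide genes, had 10.71 and 11.10 in knock-in hearts and 10.92 and 10.86 in wild-type hearts. Serum response factor, Srf, differed by -0.14 and its cofactor Myocd by -0.25. Mef2d, a calcium-responsive factor of pathological remodelling, had the smallest p at -0.26 (0.01 with the probe set listed first and -0.16 without wild-type 2). Of 13 measured chromatin regulators, 10 values were above 0 with a median of 0.12, and Hdac3 and Hdac4, deacetylases that repress muscle genes, had an unadjusted p under 0.05. Hdac3 had 9.35 and 9.44 in knock-in hearts and 9.04 and 9.05 in wild-type hearts (difference 0.35, adjusted p = 0.463). Hdac4 had 8.51 and 8.31 in knock-in hearts and 8.10 and 7.91 in wild-type hearts (difference 0.40, adjusted p = 0.519, 0.26 with probe sets averaged).

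Of 24 other fetal or stress-induced muscle genes measured, 11 values were above 0 and the median was -0.03. Among them, Myl4, Myl7, Myl1, Actc1, Actg2, Tagln and Cnn1 also served as cell type markers, so the lists are not separate observations. Fhl1, a LIM protein of the sarcomere that takes part in hypertrophic signalling in mice, had 11.96 and 11.87 in knock-in hearts and 12.30 and 12.26 in wild-type hearts (difference -0.37, adjusted p = 0.437, -0.19 with probe sets averaged). Uck2, a pyrimidine salvage kinase, had 9.52 and 9.59 in knock-in hearts and 10.12 and 10.70 in wild-type hearts (difference -0.86, adjusted p = 0.354, -0.44 with probe sets averaged, -0.08 with the probe set listed first and -0.57 without wild-type 2). Tnni1, the fetal troponin I, differed by 0.08, and Xirp1, the paralogue of Xirp2, by -0.09. Of 18 measured genes of calcium handling, ion channels, hormone receptors and energy metabolism of adult heart, 12 values were above 0 with a median of 0.01. The calcium pump Atp2a2 differed by 0.04 and the ryanodine receptor Ryr2, which is also one of the cardiomyocyte markers, by 0.00110. The sodium-calcium exchanger Slc8a1, which is known to rise in many failing hearts, had 8.55 and 8.08 in knock-in hearts and 8.76 and 9.21 in wild-type hearts (difference -0.67, adjusted p = 0.531, -0.21 with the probe set listed first, -0.43 without knock-in 2 and -0.90 without knock-in 1). The glucose transporter Slc2a4 differed by 0.27 (adjusted p = 0.662, 0.13 with probe sets averaged).

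Of 19 measured genes of growth signalling, 11 values were above 0 and the median was 0.08. Camk2d, the main calmodulin-dependent kinase of heart, had 9.20 and 9.07 in knock-in hearts and 8.07 and 8.62 in wild-type hearts (difference 0.79, adjusted p = 0.366, 0.06 with probe sets averaged and 0.51 without wild-type 1). Stat3, a transcription factor downstream of the gp130 receptor, had 11.03 and 11.20 in knock-in hearts and 11.54 and 11.65 in wild-type hearts (difference -0.48, adjusted p = 0.360, 0.03 with the probe set listed first). The adrenergic receptor Adra1b differed by -0.54 (adjusted p = 0.611, -0.25 without knock-in 2 and -0.83 without knock-in 1).

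**Figure D5:**
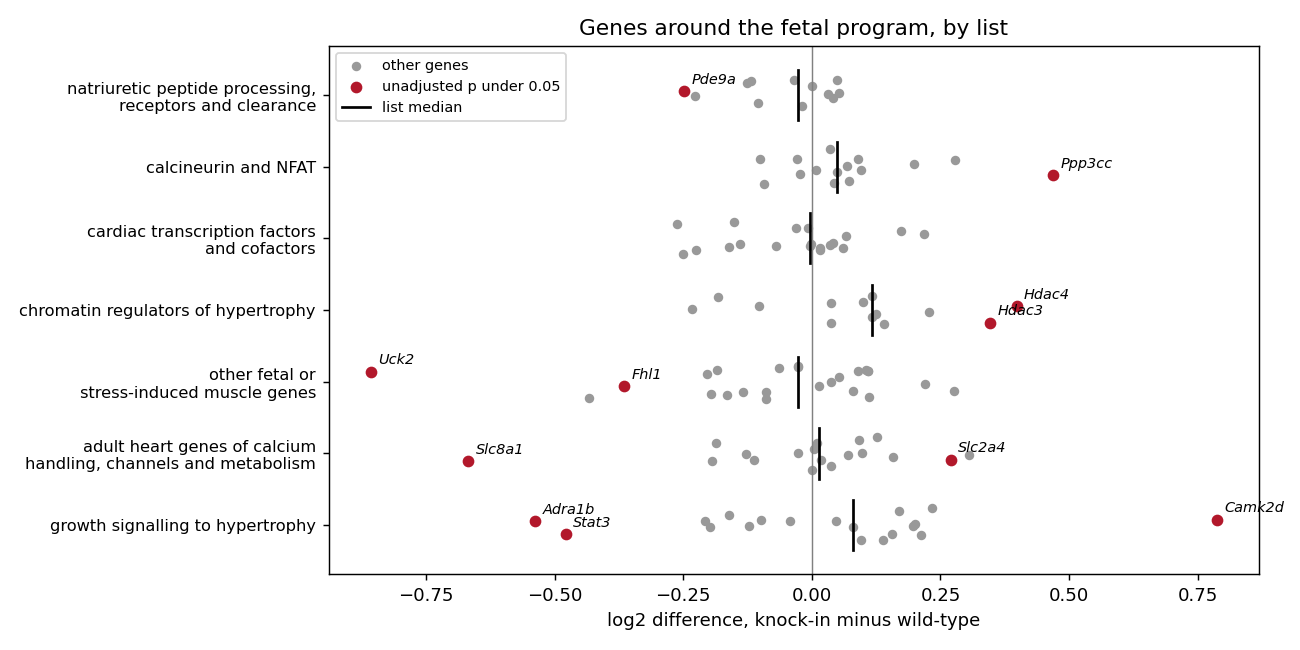
Log2 differences, knock-in minus wild-type, of the 120 genes in 7 lists around the fetal program, one point a gene, list medians as black bars, genes at an unadjusted limma p under 0.05 in red. The 11 red genes fall on both sides of 0 and the list medians lie between -0.03 and 0.12.

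For genes whose values spanned at least 0.5 log2 units, the most similar of 9089 other bright genes were named by root mean square distance between array values centred on each gene's mean, over 4 arrays. Closest to Acta1 were Ttr (0.11), the plasma transport protein of liver that is also one of the hepatocyte markers, Nrn1 (0.14) and Adat2 (0.16). Closest to Nppb were Rmdn3 (0.06), Arhgap12 (0.06) and Sh3d19 (0.07). Closest to Rcan1 were the chemokines Ccl2 (0.07) and Ccl9 (0.12), and the integrin Itgb6 (0.13). With 4 arrays these distances only describe the pattern.

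The tissue label was borne out by its markers, since all 8 cardiomyocyte genes examined, troponin T and titin among them, had values between 12.95 and 14.76 on every array. Their sums were 161068 and 166225 in knock-in hearts and 156272 and 158514 in wild-type hearts, with 5 of 8 higher on both knock-in arrays, beside 19.6% of all genes, and 0 at an unadjusted p under 0.05. Ventricular markers were higher at an unadjusted p under 0.05 in 2 of 5, Irx4 (0.33) and the dim Hey2 (0.38), beside 4.4% of all genes. Array medians lay between 5.97 and 6.04.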

How the data were processed

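The authors deposited log2 values, 1 per probe set and array. Per the submitters' processing notes they come from RMA in Affymetrix Expression Console; version and genome build are not given in the sources used here. Per the labels, the wild-type arrays were normalized here with the knock-in arrays alone, and also serve a second comparison. RMA makes no presence call, and precision is limited by the number of arrays.

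Of 45101 probe sets, 64 were controls, 34945 carried 1 symbol in the platform annotation, 932 several and 9160 none. Entrez IDs linked 34741 to current symbols in a RefSeq table of GRCm38.p6. A gene was represented by its brightest probe set, by mean over all arrays. Knock-in minus wild-type differences were fitted with limma 3.58.1 in R 4.3.3 over 18193 genes, and separately over 45037 probe sets, two-sided, with Benjamini-Hochberg adjustment at 0.05 and without a brightness filter. Statistics of non-representing probe sets come from the second fit. The fit was also run on data simulated from its own variance estimates with independent normal errors, which cannot show whether it suits these arrays. Genes, lists and tests were chosen with earlier results of these data known. From each list, genes at an unadjusted p under 0.05 were named, at most 4, otherwise the one of smallest p; further members were added by role after their values were seen. Alternatives tried: a block for replicate number, a robust prior with trend, centring, quantile normalization, other probe set choices, brighter genes alone and leaving out each array.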

Additional observations from a re-analysis of the deposited data

How the results depend on the processing

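No measured marker gene passed the limma test under any alternative, where the smallest adjusted p was 0.156, for Acta1 without knock-in 1. Of 96 differences of the 8 genes under alternatives, 88 kept their sign and 8 turned. Myh6 turned to -0.206 with probe sets averaged and -0.489 with the probe set listed first, and Myh7 to -0.0341 after quantile normalization. With arrays left out in turn, differences ran from -0.0590 to 0.529 for Nppb, -0.0851 to 0.113 for Myh7, -0.0152 to 0.294 for Ankrd1, 0.62 to 1.43 for Acta1, -0.97 to -0.07 for Rcan1, and for single probe sets from -1.07 to 0.0940 for 1417729_at, -0.385 to 0.0641 for 1456658_at, -0.0238 to 0.395 for 1420992_at and -0.0109 to 0.0631 for 1448554_s_at, which was -0.00810 after quantile normalization. Mef2d and Stat3 turned to 0.00501 and 0.0311 with the probe set listed first.

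Over all genes 1 passed, against 0 with the replicate block, with a crossed pairing added after seeing the data, with the probe set listed first and without any 1 array, 22 with a trend and robust prior, 11 with centring, with quantile normalization and with probe sets averaged, and 7 among brighter genes. Over probe sets 0 passed, and 2628 had an unadjusted p under 0.05, against 19 past the threshold with a trend and robust prior and 8 after quantile normalization. The replicate block and the crossed pairing left each difference at its value and called 0 genes. The correlation of deviations between samples of the same number was -0.03 over all genes and -0.15 over those above the median, so the numbers do not show pairing.

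List medians moved by more than the spread between replicates in some fits. With centring they were 0.0886 for calcineurin, 0.0353 for transcription factors, 0.0123 for other muscle genes and 0.0528 for adult heart genes. After quantile normalization they were -0.0281 for transcription factors and -0.0527 for other muscle genes. With probe sets averaged they were -0.0152 for calcineurin, 0.0577 for chromatin regulators, -0.0449 for other muscle genes and 0.0607 for adult heart genes, and with the probe set listed first 0.0691, 0.0371, -0.0452 and 0.0660. With arrays left out they ran from -0.0985 to 0.00847 for natriuretic peptide genes, -0.00199 to 0.103 for calcineurin, -0.0550 to -0.0148 for transcription factors, 0.0412 to 0.141 for chromatin regulators, -0.0241 to 0.000545 for other muscle genes, 0.0151 to 0.0401 for adult heart genes and 0.00762 to 0.129 for growth signalling. The cause of these changes was not tested. With 2 arrays a group, the 95% interval of Nppb still held a rise of 1.72-fold.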
